A study of Mus musculus with 15 samples.

Results

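Macrophage genes were followed in 15 RNA-Seq libraries of mouse tissue: Cd68, Emr1, Csf1r, Lyz2, Mrc1, Itgax, Trem2, Cd163, C1qa and Aif1. These 10 genes were picked by name as known macrophage genes, out of 23589 loci that carry a gene name, and each had 1 locus. The mice were male C57BL/6 in 3 diet groups. The AL mice ate ad libitum and were 5 months old. The DR mice ate 40% less than the AL mice for 1 month from 4 months of age and were also 5 months old. The DR-AL mice had the same month of restriction followed by 2 months of ad libitum feeding and were 7 months old, so the effect of refeeding and that of age cannot be told apart. From each group the RNA of 5 mice was pooled into 1 library per tissue, for epididymal fat, liver, colon (the intestinal mucosa), hypothalamus and hippocampus. There was therefore no replicate of any tissue and diet, and a difference between 2 libraries has no check against the spread between mice.

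Macrophages are tissue-resident phagocytes that take up dead cells, lipid, iron and microbes, and each organ has its own kind. Adipose tissue macrophages clear dying adipocytes and buffer lipid, Kupffer cells line the liver sinusoids, and microglia are the macrophages of the brain. Macrophages that lie along vessels and in the meninges of the brain differ from microglia in carrying the scavenger receptors Mrc1 and Cd163. Macrophages depend on the growth factors Csf1 and Il34, which signal through the receptor Csf1r. In bulk tissue, fewer macrophages and less RNA per macrophage cannot be told apart.

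Levels are given as counts and as counts per 1000000 counts on named loci (CPM). The libraries held 21767088 to 40500130 such counts, with a median of 26554699. A gene was called when the Z test of square roots of counts, used by the study for these pools, gave an adjusted p under 0.05 over all genes of the tissue and the log2 fold change was at least 0.32 in size. Such a call compares 2 libraries and covers counting error only, as do the 95% exact (Clopper-Pearson) intervals given in brackets after each log2 fold change. DR and DR-AL were compared with the same AL library in each tissue, so the 2 comparisons are not independent of each other.

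Single markers of tissue macrophages were found in their own tissues. In the liver Clec4f, a lectin that marks Kupffer cells, had 1180 counts under AL, 729 under DR and 932 under DR-AL. All 12 genes of a Kupffer cell list had counts in the liver, but they also had counts in AL and DR fat. The list summed to 411 CPM in AL liver, 563 CPM in AL fat and 514 CPM in AL colon. The order of these 3 tissues was the same under DR and DR-AL, so the list as a whole did not mark the liver. In the hippocampus P2ry12, a purine receptor of microglia, had 1777, 1414 and 1061 counts, whereas in the colon it had 4, 2 and 3 counts. The fat libraries also carried genes of other organs. Hepatocyte genes summed to 14658 CPM in AL fat, against 5303 CPM in DR fat and 4113 CPM in DR-AL fat. The DR and DR-AL sums were almost all from 1 gene, Cyp2e1, with 227711, 119637 and 112244 counts in AL, DR and DR-AL fat. Ahsg, of the same list, had 33766, 222 and 41 counts. Testis germ cell genes summed to 3.32 CPM in AL fat, 556 CPM in DR fat and 2885 CPM in DR-AL fat. Clec4f had 136 counts in AL fat, 2 in DR fat and 0 in DR-AL fat. The gene of albumin was listed at 0 in the liver and the other tissues, so the hepatocyte list rests on its 9 other genes.

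The promoters are shown for 4 members of different roles, a lysozyme, a lysosomal glycoprotein, a mannose receptor and an integrin, as examples. RefSeq (GRCm38.p6) gave a promoter for 7 of the 10 members, and the lines give the bases before the RefSeq gene start, 5′ to 3′. Capitals mark the PU box GAGGAA and the related ETS core GGAAGT, on either strand, where TTCCTC and ACTTCC are the reverse complements. PU.1, a factor of the ETS family, is known for its role in macrophage development.
Lyz2, chr10:117282273-117282522, reverse strand: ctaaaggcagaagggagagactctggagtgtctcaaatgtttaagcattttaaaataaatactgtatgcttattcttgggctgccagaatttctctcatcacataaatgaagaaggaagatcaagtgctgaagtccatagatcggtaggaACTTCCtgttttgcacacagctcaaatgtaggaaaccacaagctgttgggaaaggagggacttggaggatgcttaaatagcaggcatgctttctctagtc
Cd68, chr11:69666171-69666420, reverse strand: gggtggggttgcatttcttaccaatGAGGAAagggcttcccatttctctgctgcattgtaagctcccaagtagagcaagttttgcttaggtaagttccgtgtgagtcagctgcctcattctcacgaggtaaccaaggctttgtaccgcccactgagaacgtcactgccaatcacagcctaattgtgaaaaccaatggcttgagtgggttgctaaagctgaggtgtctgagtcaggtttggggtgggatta
Mrc1, chr2:14229164-14229413, forward strand: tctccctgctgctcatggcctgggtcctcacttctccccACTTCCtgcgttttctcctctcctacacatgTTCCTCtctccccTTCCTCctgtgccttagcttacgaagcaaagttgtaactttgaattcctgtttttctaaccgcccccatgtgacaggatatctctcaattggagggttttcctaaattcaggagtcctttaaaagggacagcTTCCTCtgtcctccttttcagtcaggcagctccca
Itgax, chr7:128129300-128129525, forward strand: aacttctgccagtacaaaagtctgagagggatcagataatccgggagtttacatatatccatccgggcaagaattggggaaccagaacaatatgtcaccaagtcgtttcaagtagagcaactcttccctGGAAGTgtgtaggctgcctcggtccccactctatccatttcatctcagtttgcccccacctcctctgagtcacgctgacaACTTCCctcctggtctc

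The motifs were searched in the 250 bases before the start site of the RefSeq promoter table, of which 226 lie outside the gene and are shown for Itgax. The PU box was found in 4 of the 7 members, namely Cd68, Mrc1, Trem2 and Aif1, and in 23.3% of 32851 mouse promoters. The core GGAAGT was found in Lyz2, Mrc1 and Itgax, and in 19.7% of all promoters, and the 2 motifs can overlap each other. The letters TATAAA were found in 0 of the 7 members and in 12.4% of all promoters. Mrc1 had 3 PU boxes in this window. These matches describe the letters only and carry no statement on binding in these tissues.

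Across tissues, most macrophage genes were highest in fat when measured in CPM at library totals. Taken by their median over the 3 diets, 8 of the 10 members were highest in epididymal fat, with no overlap between the 3 fat libraries and those of the next tissue. Csf1r and Trem2 were highest in the hippocampus, where Csf1r had 78.8, 80.5 and 88 CPM and overlapped its range in fat and in the hypothalamus. The colon was lowest for 7 members, and the exceptions were Lyz2, Mrc1 and Itgax. The order of fat and liver depended on the scaling. In the deposited FPKM, a level per length, AL liver lay above AL fat for C1qa (61.5 against 40.8), Csf1r, Mrc1, Emr1 and Aif1. It lay below AL fat for Lyz2 (57.3 against 106), Cd68, Cd163, Itgax and Trem2.

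**Figure D1:**
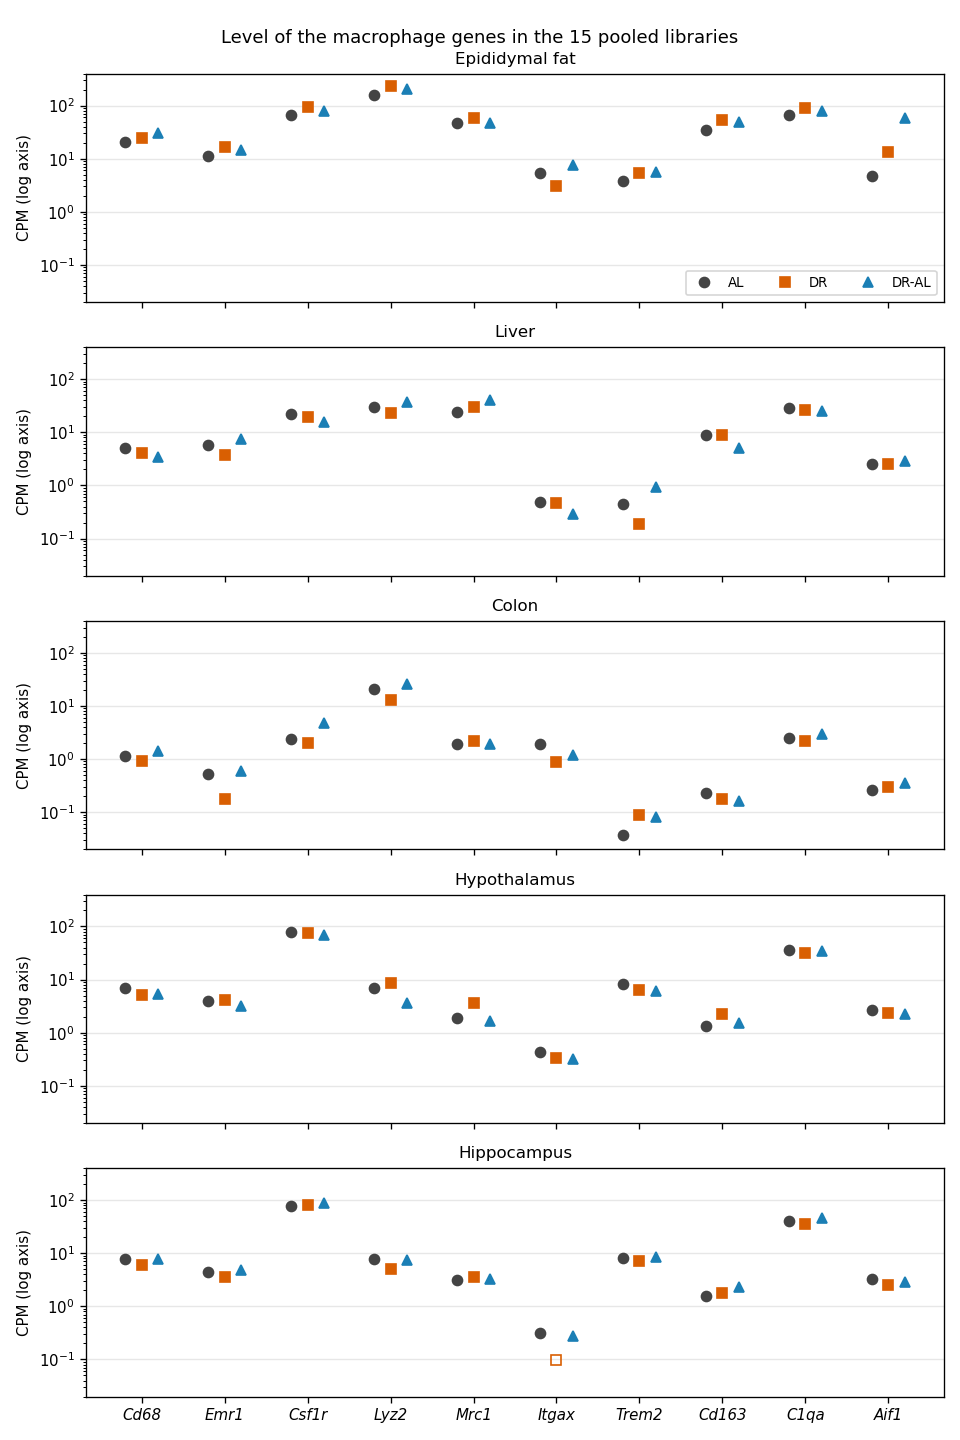
Level of the 10 macrophage genes in CPM on a log axis, with 1 point per pooled library and 1 panel per tissue (circles AL, squares DR, triangles DR-AL). Lyz2 lies between 157 and 235 CPM in fat and between 3.56 and 8.55 CPM in the hypothalamus, and the open square is Itgax in DR hippocampus, listed at 0 counts and drawn at the floor of 3 counts.

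Lyz2, which encodes the lysozyme of macrophages and neutrophils, had 157, 235 and 205 CPM in fat and 29.5, 23.1 and 37.2 CPM in the liver in AL, DR and DR-AL. In the brain it had 6.98, 8.55 and 3.56 CPM in the hypothalamus and 7.93, 5.09 and 7.43 CPM in the hippocampus. Lyz2 shares long stretches of sequence with Lyz1, so reads may have been split between them. Lyz1 had 1215, 1060 and 1103 counts in fat.

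Trem2, a lipid-sensing receptor of phagocytes, differed from Lyz2 in its place in the brain, where it was highest. It had 8.02, 7.17 and 8.62 CPM in the hippocampus, 3.85, 5.48 and 5.59 CPM in fat and 0.445, 0.184 and 0.939 CPM in the liver. In the colon Trem2 was near the limit of detection with 1, 3 and 2 counts.

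Measured per length as FPKM, and therefore comparable between genes of 1 library, Lyz2 led in AL fat at 106, followed by C1qa at 40.8 and Csf1r at 19.1. In AL hippocampus C1qa led at 29.1 FPKM, followed by Csf1r at 18.3 and Trem2 at 5.97. Itgax, the integrin CD11c of dendritic cells and of some activated macrophages, was the lowest of the 10 in both libraries, at 0.768 FPKM in fat and 0.0511 FPKM in hippocampus.

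The brain regions were compared with the 3 peripheral tissues with edgeR's quasi-likelihood test and Benjamini-Hochberg adjustment over all 15 libraries, in which the diets served as repeats and diet was a term. In this test 41.8% of 17476 genes passed as higher in brain and 38.5% as lower, so a member that passed was no exception among genes. Csf1r was 1.75 higher on the log2 scale (SE 0.17, adjusted p = 1.64e-06) and Trem2 was 3.21 higher (SE 0.28, adjusted p = 8.96e-07). C1qa, a chain of the complement component C1q, was 0.60 higher (SE 0.08, adjusted p = 4.99e-05), although its CPM in fat lay above those in both brain regions. The genes lower in brain were Lyz2 with a log2 difference of -3.37, Mrc1 and Itgax with -2.89 each, and Cd163 with -1.66. Cd68, Emr1 and Aif1 did not pass, with differences of -0.11 (SE 0.14), -0.15 (SE 0.24) and -0.38 (SE 0.40). Without the fat libraries 6 members passed as higher in brain and 3 as lower, against 45.3% and 39.4% of all genes.

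Fat was compared with liver in the same fit, where 41.6% of genes passed as higher in fat and 28.6% as lower. As many as 8 members were higher in fat and 0 were lower. Itgax had the largest difference at 2.43 (SE 0.63, adjusted p = 0.00521), followed by Trem2 at 2.12 (SE 0.44, adjusted p = 0.00136). Emr1, the F4/80 antigen now named Adgre1, differed by 0.19 (SE 0.34, adjusted p = 0.627), and Mrc1, the mannose receptor, by -0.49 (SE 0.24, adjusted p = 0.0948). This fit scaled the libraries by TMM and not by library totals. At library totals both genes were higher in fat, Emr1 with 11 to 16.8 CPM against 3.68 to 7.63 in the liver. Mrc1 had 46.3 to 58.7 CPM in fat against 23.7 to 41 in the liver. Without the DR libraries 5 members passed as higher and 0 as lower, against 33.5% and 23.6% of all genes.

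The hypothalamus and the hippocampus differed in 1 member. C1qa was lower in the hypothalamus by a log2 difference of -0.50 (SE 0.13, adjusted p = 0.0139), against a background of 15.5% of genes higher and 15.3% lower. C1qa had 36.6, 31.1 and 34 CPM in the hypothalamus and 40.5, 35.9 and 45.7 CPM in the hippocampus, so the ranges overlapped. This call was lost when any of the diets was left out. Fewer genes passed in those runs, with 988 to 2126 higher and 1039 to 2252 lower, against 2702 and 2671 in the full fit.

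In epididymal fat, most macrophage genes had a higher CPM in DR than in AL. At library totals 7 members rose in DR and 1, Itgax, fell, while 35.2% of all genes rose and 10.4% fell. In DR-AL 7 members rose and 0 fell, while 46.0% of all genes rose and 11.9% fell. The direction of these calls depended on how the libraries were scaled, except for Itgax in DR and Aif1. With the deposited FPKM at a pseudocount of 0.1, counted by the size of the fold alone, 1 member was up and 3 were down in DR, where 19.4% of all genes were up and 54.0% down. In DR-AL 1 member was up and 9 were down by the same count, where 18.9% of all genes were up and 66.0% down.

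Csf1r, the receptor on which macrophages depend, had 1732 counts in AL fat, 2171 in DR fat and 2151 in DR-AL fat, or 66.1, 95.1 and 78.6 CPM. Its log2 fold change was 0.53 [0.43, 0.62] in DR, which was called, and 0.25 [0.16, 0.34] in DR-AL, which was not called. Its ligands are Csf1 and Il34. Csf1 had 1057, 1066 and 1205 counts and was called in neither comparison, and Il34 had 511, 622 and 580 counts and rose in DR by 0.48 [0.31, 0.65].

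The surface antigen Emr1 had 288, 384 and 403 counts in AL, DR and DR-AL fat and rose in both, by 0.61 [0.39, 0.84] on the log2 scale in DR and by 0.42 [0.20, 0.65] in DR-AL. Cd68, a glycoprotein of the lysosome and endosome membrane, had 533, 557 and 849 counts and rose in DR-AL by 0.61 [0.45, 0.77], while its DR value of 0.26 [0.09, 0.44] was not called. Lyz2 had 4121, 5363 and 5595 counts and rose in both, by 0.58 [0.52, 0.64] and 0.38 [0.32, 0.44]. For these 3 genes the AL library was the lowest at library totals.

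The scavenger receptors differed from each other. Cd163, which takes up haemoglobin bound to haptoglobin, had 905, 1241 and 1356 counts and rose by 0.65 [0.53, 0.78] in DR and by 0.52 [0.40, 0.64] in DR-AL. Mrc1 had 1242, 1341 and 1267 counts and was called in neither, with 0.31 [0.20, 0.42] in DR and -0.03 [-0.15, 0.08] in DR-AL. Trem2 had 101, 125 and 153 counts and rose by 0.51 [0.12, 0.90] and 0.54 [0.17, 0.91], and its adaptor Tyrobp had 460, 460 and 662 counts and rose in DR-AL alone, by 0.46 [0.29, 0.64].

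C1qa had 1738, 2076 and 2192 counts in fat, rose in DR by 0.46 [0.36, 0.55], and had 0.27 [0.18, 0.37] in DR-AL, which was not called. The other chains of C1q gave like values. C1qb had 1658, 1841 and 2351 counts and rose by 0.35 [0.25, 0.45] and 0.44 [0.35, 0.53]. C1qc had 1823, 2167 and 2268 counts and rose in DR by 0.45 [0.36, 0.54]. Of the list of C1q, Fc receptor and phagocytosis genes, 7 of 14 rose in DR and 0 fell, with a median log2 fold change of 0.36 against 0.23 over all genes tested. In DR-AL 6 rose and 2 fell, and the median of 0.32 lay below the 0.39 over all genes tested.

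Itgax went the other way in DR fat. Its counts were 138 under AL, 69 under DR and 209 under DR-AL, or 5.26, 3.02 and 7.64 CPM. DR was the lowest of the 3 libraries and DR-AL the highest. The log2 fold change was -0.80 [-1.24, -0.37] in DR, 0.54 [0.22, 0.86] in DR-AL against AL, and 1.33 [0.94, 1.75] in DR-AL against DR. The DR value stayed negative under the 5 other scalings of counts, between -0.57 and -1.02, and with FPKM, where it was -1.26 at a pseudocount of 0.1 and -0.49 at a pseudocount of 1. The DR-AL value was still called at 0.45 without the 10 most abundant genes, at 0.53 over shared genes and at 1.05 with the adipocyte list. It was not called at 0.20 with DESeq size factors or at 0.07 with TMM, and it was -0.92 with FPKM at a pseudocount of 0.1.

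The share of a gene within the summed counts of the members needs no scaling between libraries. Aif1 was left out of this sum for the reason given with its values. Itgax made up 1.28% of the 9 other members in AL fat [1.07, 1.51], 0.518% in DR fat [0.403, 0.655] and 1.47% in DR-AL fat [1.28, 1.69]. Emr1 held 2.67%, 2.88% and 2.84% and Trem2 0.935%, 0.938% and 1.08%, with overlapping intervals. Cd68 held 4.94% [4.54, 5.36], 4.18% [3.85, 4.53] and 5.99% [5.60, 6.39], so that its share too was lowest in DR and highest in DR-AL. The share of Mrc1 was highest in AL with 11.5% [10.9, 12.1], followed by 10.1% [9.56, 10.6] in DR and 8.94% [8.47, 9.42] in DR-AL.

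**Figure D2:**
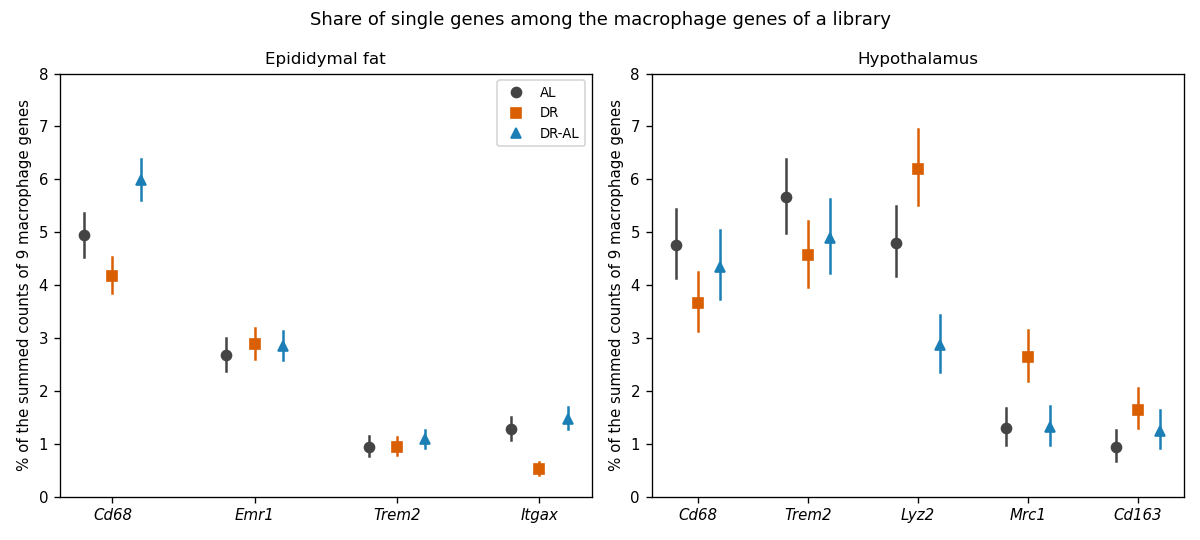
Share of single genes in percent of the summed counts of 9 macrophage genes (all but Aif1) in the same library, with 95% exact intervals for counting error (circles AL, squares DR, triangles DR-AL). In fat the share of Itgax is 0.518% in DR against 1.28% in AL and 1.47% in DR-AL, and in the hypothalamus the share of Mrc1 is 2.64% in DR against 1.30% in AL and 1.31% in DR-AL.

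Aif1, the calcium-binding protein IBA1, had the widest range of the members in fat. Its counts were 124 under AL, 298 under DR and 1598 under DR-AL, or 4.73, 13.1 and 58.4 CPM, with log2 fold changes of 1.46 [1.16, 1.78] and 3.62 [3.36, 3.90]. The 3 libraries were thus well apart from each other. In the other 4 tissues Aif1 was called in neither comparison. In DR-AL fat it stood out from the 9 other members, whose fold changes ran from -0.03 to 0.61. In the deposited table Aif1 is listed on an interval of 47221 bases, against 5098 bases for the RefSeq gene, and shares that interval and strand with Prrc2a, so counts may have been split between them. Prrc2a had 7090, 8315 and 14867 counts in the fat libraries. The testis germ cell genes moved in the same direction, with 8 of 8 called up in both comparisons, and their part in the Aif1 values was not tested.

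**Figure D3:**
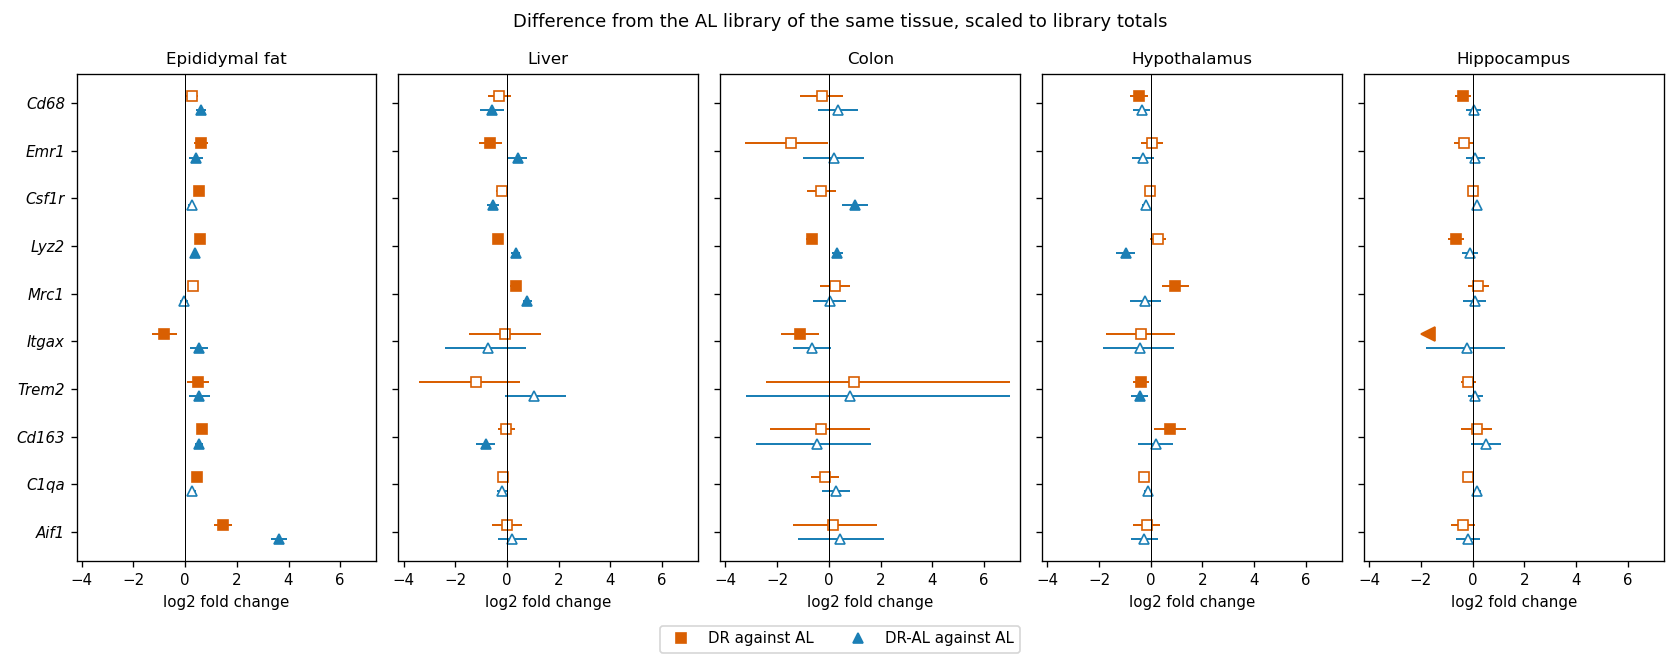
Log2 fold change of the 10 macrophage genes against the AL library of the same tissue, scaled to library totals, with 95% exact intervals for counting error (squares DR, triangles DR-AL, filled where called). In fat the DR squares lie above 0 except that of Itgax at -0.80, a pattern that turns with FPKM scaling. The arrowhead in the hippocampus marks Itgax in DR as a bound, and the colon intervals of Trem2 reach up to 6.97.

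Markers of other cells moved with the fat groups as well. Hepatocyte genes fell in 9 of 9 tested in DR and in DR-AL, and the DR median was -6.48 on the log2 scale. Epididymis genes summed to 1036 CPM in AL, 3692 CPM in DR and 6162 CPM in DR-AL, and testis genes rose as given above. Adipocyte genes summed to 44150, 37694 and 30772 CPM. B and plasma cell genes fell in 5 of 7 in DR, among them Igj, the joining chain of antibodies, with 993, 293 and 1174 counts. Dendritic cell genes, which like Itgax mark CD11c cells, fell in 4 of 8 and rose in 2 of 8 in DR. Zbtb46, a factor of classical dendritic cells, had 837, 440 and 995 counts. The pan-leukocyte gene Ptprc (CD45) had 568, 375 and 664 counts and fell in DR by a log2 fold change of -0.40 [-0.59, -0.21]. Cd52, of the same list and also a gene of the epididymis, had 4335, 15300 and 36382 counts. The part of these cells in the values of the members was not tested.

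**Figure D4:**
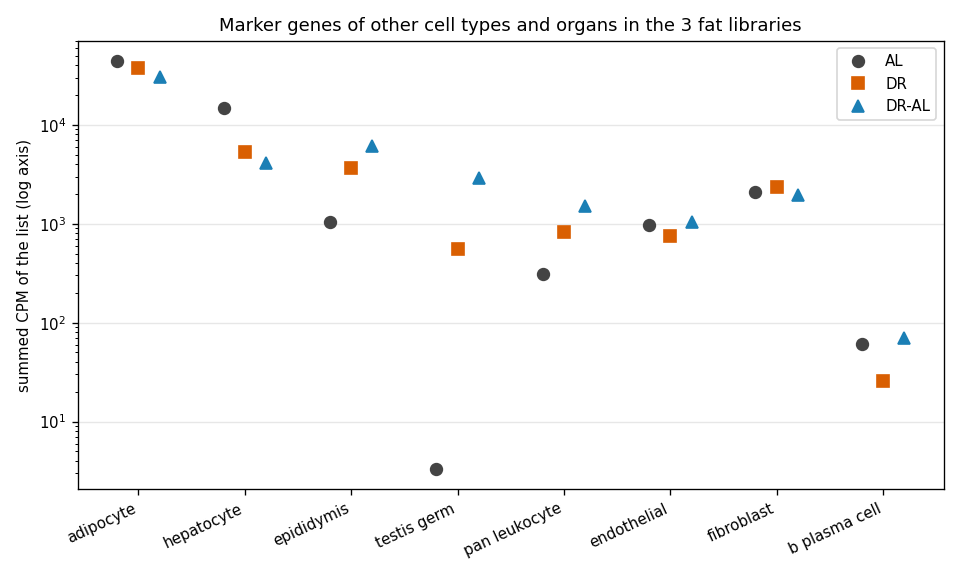
Summed CPM, on a log axis, of the marker genes of 8 cell types or organs in the 3 fat libraries (circles AL, squares DR, triangles DR-AL). Testis germ cell genes sum to 3.32 CPM in AL and 2885 CPM in DR-AL, and B and plasma cell genes to 60.6 CPM in AL, 25.5 CPM in DR and 70.2 CPM in DR-AL. The hepatocyte sums of DR and DR-AL are almost all from Cyp2e1.

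The scaling set the size of the fat differences for genes in general. At library totals the median log2 fold change of all genes averaging 10 counts or more was 0.24 in DR and 0.34 in DR-AL, and that of the members was 0.52 and 0.47. With DESeq size factors the medians of all genes were 0.05 and 0.00 and those of the members 0.33 and 0.14. With FPKM at a pseudocount of 0.1 the medians of all genes were -0.45 and -1.18 and those of the members -0.27 and -1.06. At a pseudocount of 1 they were -0.34 and -0.83 for all genes and -0.23 and -0.86 for the members, so that in DR-AL the members then lay below all genes.

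**Figure D5:**
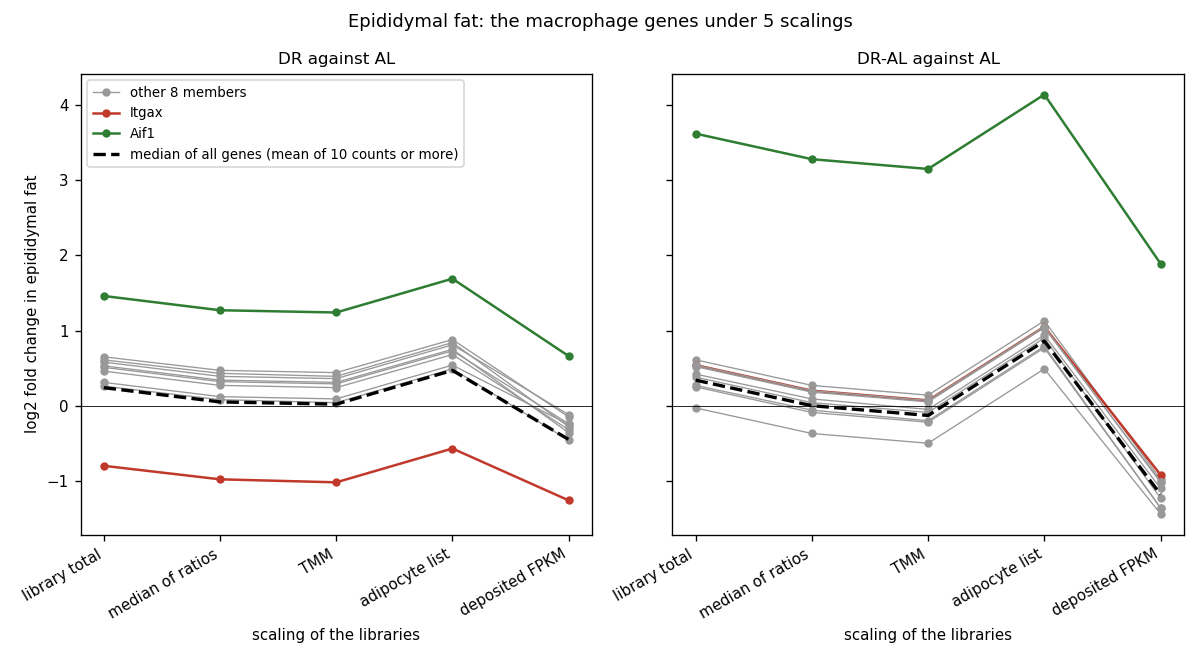
Log2 fold change of the 10 members in epididymal fat under 5 scalings of the libraries, FPKM at a pseudocount of 0.1 (each line is 1 gene, Itgax and Aif1 in colour, the dashed line is the median of all genes averaging 10 counts or more). In DR, Itgax is below 0 under all 5 scalings, from -0.57 to -1.26, while the other members but Aif1 pass from above 0 at library totals to below 0 with FPKM.

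In the liver, the members moved in both directions. In DR 1 member rose and 2 fell, against 18.0% of all genes up and 9.92% down. In DR-AL 3 members rose and 3 fell, against 15% up and 15.8% down. The median of the members was -0.18 in DR and 0.01 in DR-AL, and that of all genes tested 0.10 and 0.00.

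Emr1 had 142 counts in AL liver, 80 in DR and 187 in DR-AL. It fell in DR by a log2 fold change of -0.64 [-1.06, -0.24] and rose in DR-AL by 0.41 [0.09, 0.74], and DR-AL against DR gave 1.05 [0.67, 1.45]. Lyz2 had the same order with 729, 502 and 911 counts, a fall of -0.35 [-0.52, -0.19] in DR and a rise of 0.34 [0.19, 0.48] in DR-AL. Trem2 had 11, 4 and 23 counts, and its values of -1.19 [-3.38, 0.48] and 1.04 [-0.02, 2.26] were not called. For all 3 genes DR was the lowest library and DR-AL the highest.

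Mrc1, in the liver a receptor of both Kupffer cells and sinusoidal endothelium, rose in both comparisons, with 586, 651 and 1004 counts. The log2 fold changes were 0.34 [0.17, 0.50] and 0.79 [0.64, 0.94], and the DR call was lost under DESeq, TMM and shared-gene scaling. Endothelial genes rose in 3 of 7 in DR, among them Cdh5 with 294, 342 and 344 counts, and their part in the Mrc1 values was not tested.

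Cd163, Csf1r and Cd68 had their lowest liver level in DR-AL. Cd163 had 223, 193 and 124 counts and fell in DR-AL by -0.83 [-1.16, -0.51]. Csf1r had 559, 424 and 383 counts and fell by -0.53 [-0.72, -0.34]. Cd68 had 126, 90 and 84 counts and fell by -0.57 [-0.99, -0.16]. None of these 3 genes was called in DR. C1qa, with 717, 569 and 625 counts, Aif1, with 62, 55 and 71, and Itgax, with 12, 10 and 7, were called in neither comparison.

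Kupffer cell genes gave a mixed count in the liver, with 3 of 12 up and 4 down in DR and 2 up and 4 down in DR-AL. Among the 4 that fell in both were the following. Clec4f differed from AL by -0.51 [-0.65, -0.38] in DR and -0.33 [-0.45, -0.20] in DR-AL on the log2 scale. Vsig4, a complement receptor of Kupffer cells, had 437, 274 and 334 counts and fell by -0.49 [-0.71, -0.27] and -0.37 [-0.58, -0.16]. Cd5l, a lipid regulator secreted by macrophages, had 1298, 710 and 940 counts and fell by -0.69 [-0.82, -0.55] and -0.45 [-0.57, -0.33]. The fourth was Folr2, a folate receptor, with 151, 91 and 82 counts. Marco, a scavenger receptor, went the other way in DR, with 192, 548 and 181 counts and a rise of 1.69 [1.46, 1.94], and Clec1b and Cdh5 rose there by 0.38 and 0.40. In DR-AL Id3 rose by 1.01 [0.88, 1.15] and Hmox1, which degrades haem, by 0.61 [0.41, 0.81]. B and plasma cell genes fell in 5 of 7 in DR and 2 of 7 in DR-AL, and Ptprc fell in DR from 167 to 101 counts and had 193 counts in DR-AL.

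In the colon 7 of the 10 members averaged 10 counts or more. In DR 0 members rose and 2 fell, against 9.04% of genes up and 10.6% down, and in DR-AL 2 rose and 0 fell, against 5.83% up and 8.50% down. Lyz2 had 553, 437 and 655 counts and fell in DR by -0.67 [-0.86, -0.49] and rose in DR-AL by 0.33 [0.16, 0.49]. Itgax had 50, 29 and 30 counts and fell in DR by -1.10 [-1.83, -0.43]. Csf1r had 64, 66 and 121 counts and rose in DR-AL by 1.00 [0.55, 1.46].

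The other 7 members of the colon were called in neither comparison. Emr1 had 14, 6 and 15 counts, Cd68 30, 31 and 36, Mrc1 50, 74 and 48, and C1qa 65, 74 and 74. Cd163 had 6, 6 and 4 counts and Aif1 7, 10 and 9, where differences were not detectable at this depth. Lymphoid genes moved beside Lyz2 and Itgax. B and plasma cell genes fell in 7 of 7 in DR, with a median log2 fold change of -1.74, and rose in 6 of 7 in DR-AL. T and NK cell genes fell in 6 of 10 in DR, and Ptprc had 273, 134 and 344 counts. Their part in the Lyz2 and Itgax values was not tested, and Lyz1 had 105, 72 and 137 counts in these libraries.

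In the hypothalamus, 2 members rose and 2 fell in DR, against 4.33% of genes up and 2.72% down. In DR-AL 0 rose and 2 fell, against 6.06% up and 9.02% down. The genes that rose in DR were those known from macrophages of vessels and meninges. Mrc1 had 56 counts under AL, 119 under DR and 51 under DR-AL, and its log2 fold change was 0.94 [0.48, 1.43] for DR and -0.21 [-0.78, 0.37] for DR-AL. Cd163 had 40, 74 and 48 counts, 0.74 [0.17, 1.34] in DR and 0.19 [-0.45, 0.83] in DR-AL. For both genes DR was the highest library.

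Lyz2 followed with 207, 280 and 111 counts. Its DR value of 0.29 [0.03, 0.56] was not called, and it fell in DR-AL by -0.97 [-1.32, -0.63]. Lyve1, a receptor of perivascular macrophages and of lymphatic vessels, had 11, 42 and 15 counts and rose in DR by 1.75 [0.81, 2.90]. Stab1, a scavenger receptor of macrophages and endothelium, had 394, 577 and 468 counts and rose in DR by 0.41 [0.22, 0.60].

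Fibroblast genes moved in the same direction in the hypothalamus. They summed to 145, 196 and 118 CPM, with 6 of 7 up in DR and 5 of 7 down in DR-AL. Dcn, a matrix proteoglycan, had 716, 1449 and 458 counts. Endothelial genes rose in 3 of 7 in DR. Colon epithelium genes fell in 8 of 9 in DR and 7 of 9 in DR-AL, from 25.1 CPM in AL to 6.05 and 3.81 CPM. The part of these cells in the Mrc1, Cd163 and Lyz2 values was not tested.

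The members that microglia also carry fell or were not called. Trem2 had 244, 206 and 190 counts in the hypothalamus and fell in both, by -0.39 [-0.66, -0.11] and -0.43 [-0.71, -0.15]. Cd68 had 205, 165 and 169 counts and fell in DR by -0.45 [-0.76, -0.15]. Csf1r had 2339, 2506 and 2144 counts, with -0.04 [-0.12, 0.04] and -0.20 [-0.28, -0.11], and was called in neither. C1qa had 1087, 1018 and 1061 counts, Aif1 79, 78 and 70, Emr1 118, 135 and 101, and Itgax 13, 11 and 10, all without a call. Of 12 microglia genes 3 fell in DR and 6 in DR-AL, and 0 rose. P2ry12 had 781, 771 and 678 counts and Tmem119 410, 438 and 410, and neither was called.

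In the hippocampus 0 members rose and 3 fell in DR, against 1.36% of genes up and 2.67% down. In DR-AL 0 members were called by the Z test, against 3.99% up and 2.16% down. Lyz2 had 321, 159 and 187 counts, or 7.93, 5.09 and 7.43 CPM, and fell in DR by -0.64 [-0.92, -0.36]. Cd68 had 310, 185 and 198 counts, or 7.65, 5.92 and 7.87 CPM, and fell in DR by -0.37 [-0.64, -0.10]. Itgax had 13, 0 and 7 counts. With DR set at a floor of 3 counts, it was 3.34-fold lower than AL and 2.9-fold lower than DR-AL, taking the counts of those libraries as exact. The exact intervals, which cover the counting error of both libraries, ended at -1.23 for DR against AL and at 0.84 for DR-AL against DR. The call was lost where genes averaging under 10 counts were left out, as Itgax then was.

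Csf1r was called in neither hippocampus comparison, with 78.8, 80.5 and 88 CPM and log2 fold changes of 0.03 [-0.05, 0.11] and 0.16 [0.08, 0.24]. Trem2 had 325, 224 and 217 counts, C1qa 1639, 1122 and 1149, and Aif1 131, 78 and 72, without a call. Mrc1 had 125, 113 and 82 counts and Cd163 64, 55 and 57, with DR values of 0.23 [-0.15, 0.61] and 0.16 [-0.39, 0.70]. Emr1 had 183, 112 and 123 counts. Of 12 microglia genes 1, the purine receptor P2ry13, fell in DR, and 1, Tmem119, rose in DR-AL by 0.34 [0.17, 0.51].

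A change of the same direction over the 5 tissues was sought with the quasi-likelihood test. In DR 0 members passed, against 0.00572% of genes up and 0.00572% down, and in DR-AL 0 members passed, against 0.00572% up and 0% down. At an unadjusted p under 0.05 there were 657 genes in DR and 862 in DR-AL, with 0 members in both. DESeq2 also passed 0 members in both and had 1 member at an unadjusted p under 0.05 in DR. Itgax had the smallest unadjusted p of the members in DR, 0.0647 (adjusted p = 1). The tissues of a diet were taken from the same group of mice, so this test measures the spread between tissues.

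Over the 15 libraries the mean standardized level of the members ran from -1.26 in DR colon to 1.49 in DR-AL fat. The genes whose log2 level was most like it, among 16150 candidates, were Cdh5 with a Pearson correlation of 0.986, C3ar1 with 0.983 and Mmrn2 with 0.982. C3ar1 is the receptor of complement fragment C3a, and Cdh5 and Mmrn2 are genes of endothelium. Next came Npr1, Tbxas1, Kdr, Tie1, Arap3, Ormdl3 and Wwtr1, down to 0.976. The 15 points share tissues and groups of mice, so these correlations mainly describe differences between tissues. Of the members, Cd68 was closest to the mean with 0.975 and Itgax farthest with 0.536. Each member is part of this mean, so these values cannot be set beside those of the other genes.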

How the data were processed

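RNA of 5 male C57BL/6 mice per diet was pooled per tissue, depleted of ribosomal RNA and sequenced as stranded, paired-end libraries, 15 in all. The authors trimmed and aligned reads in Strand software and removed duplicates. The methods name mm10 and the submitters' processing notes mm9 and DESeq2. Only 1 of 10 members overlapped its GRCm38.p6 position, so positions come from RefSeq alone. The deposited table holds whole-number counts and FPKM values per locus for each library. The methods speak of DESeq scaling to the AL library of each tissue, and whether it went into the FPKM is not given in the sources used here.

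CPM were computed over 23589 named loci. Loci without a name, 0.258% to 1.39% of counts, were left out. Within a tissue, the Z test of square roots of count shares used a Poisson variance, with Benjamini-Hochberg adjustment over genes with at least 1 count. Calls needed an adjusted p under 0.05 and a log2 fold change of at least 0.32 in size. Log2 fold changes used a pseudocount of 0.5 counts. Intervals and the floor of 3 counts cover counting error only. Over 15 libraries, edgeR 4.0.16 (TMM, filterByExpr, quasi-likelihood F test) was fitted with tissue and diet as terms, and its common coefficient of variation was 0.301. Alternatives were other scalings, filters and tests, FPKM with pseudocounts of 0.1 and 1, DESeq2 1.42.0, and leaving out diets or tissues. 2 alternatives were chosen after seeing the data, namely the comparison without fat and the adipocyte list scaling. Scripts were tested on simulated data.

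The 10 members and the 24 marker lists were chosen with earlier results of these data known. Genes named besides the members were the 2 called genes of a list with the largest mean count, fixed partners (C1qb, C1qc, Tyrobp, Csf1, Il34, Clec4f, Vsig4, P2ry12, Tmem119, Ptprc), and the 10 genes most like the members. Prrc2a, Lyz1, albumin, Lyve1, the Kupffer list genes beyond this rule, P2ry12 in the colon and Clec4f in fat were chosen after their values were seen. Tools were R 4.3.3, numpy 2.4.6, pandas 2.3.3, scipy 1.17.1 and matplotlib 3.10.9.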

Additional observations from a re-analysis of the deposited data

Results flagged for a closer look

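Some members were called in opposite directions in different tissues under the same diet comparison, and the difference between the tissues was not tested. In DR against AL, Emr1 had a log2 fold change of -0.64 in the liver and 0.61 in epididymal fat. Lyz2 had -0.35 in the liver, -0.67 in the colon and -0.64 in the hippocampus, and 0.58 in fat. Trem2 had -0.39 in the hypothalamus and 0.51 in fat. In DR-AL against AL, Cd68 had -0.57 in the liver and 0.61 in fat, and Cd163 had -0.83 in the liver and 0.52 in fat. Csf1r had -0.53 in the liver and 1.00 in the colon. Lyz2 had 0.34 in the liver, 0.38 in fat and 0.33 in the colon, and -0.97 in the hypothalamus. Trem2 had -0.43 in the hypothalamus and 0.54 in fat. The fat side of each of these turned negative with the deposited FPKM.

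Genes of organs near the epididymal fat were higher in DR fat and in DR-AL fat than in AL fat. The testis germ cell list summed to 556 CPM in DR and 2885 CPM in DR-AL, and the epididymis list to 3692 CPM in DR and 6162 CPM in DR-AL. The AL library had 3.32 CPM and 1036 CPM of these lists.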

How the results depend on the processing

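The within-tissue calls rest on counting error alone. With an exact test that adds a coefficient of variation of 0.1 between libraries, the number of members called went from 3 to 0 in liver DR, from 6 to 2 in liver DR-AL, from 7 to 3 in fat DR-AL, from 4 to 0 in hypothalamus DR, from 2 to 1 in hypothalamus DR-AL, from 3 to 0 in hippocampus DR and from 2 to 0 in both colon comparisons. At 0.2 it was 1 in fat DR, out of 8, and 1 in fat DR-AL, and 0 in the liver, colon and hypothalamus comparisons and in hippocampus DR. The cause of the changes in fat with scaling was not tested. In fat DR-AL 2 members were called with DESeq size factors and 2 with TMM, where Emr1 had -0.05 and Lyz2 -0.09, and in fat DR 5 with TMM. With FPKM and a pseudocount of 0.1 or 1, members were counted by the size of the fold alone, without a test. By this count 4 members passed in fat DR and 10 in fat DR-AL, most in the opposite direction. At 0.1 the DR values were -0.28 for Emr1, -0.36 for Csf1r, -0.12 for Lyz2, -0.24 for Trem2, -0.15 for Cd163 and -0.32 for C1qa, and the DR-AL values -0.98 for Cd68, -1.10 for Emr1, -1.23 for Lyz2, -0.92 for Itgax, -1.02 for Trem2 and -1.01 for Cd163. At 1 the DR values were -0.22 for Emr1, -0.34 for Csf1r, -0.12 for Lyz2, -0.17 for Trem2, -0.13 for Cd163 and -0.31 for C1qa, and the DR-AL values -0.84 for Cd68, -0.77 for Emr1, -1.21 for Lyz2, -0.38 for Itgax, -0.67 for Trem2 and -0.87 for Cd163. Elsewhere, by the fold alone, FPKM at 0.1 gave 5 members in colon DR, 6 in colon DR-AL and 1 in hippocampus DR-AL. At 1 it gave 1 in colon DR, 0 in hypothalamus DR, 1 in hypothalamus DR-AL and 1 in hippocampus DR. Of these alternatives, the share of all genes was counted only for FPKM at 0.1 in fat. The other counts therefore describe the members alone. In all, 26 single member values that had been called changed sign. Among all other single member values, 1087 kept their side of the threshold, 36 passed it and 101 no longer did. The 1087 include values that were not called in either setting, so this number does not measure how many calls held. Direction was compared only for members called at library totals or in the main fit, so an uncalled member among these may have changed sign.

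No paired analysis was possible because each tissue and diet had 1 library, for the comparisons within a tissue. Over the 15 libraries diet served as the block, and without this replicate block 7 members passed between brain and periphery, 1 between hypothalamus and hippocampus and 8 between fat and liver, as with it. DESeq2 passed 3 members between hypothalamus and hippocampus, all lower in the hypothalamus. Of 17476 genes, 3046 then passed as higher and 3125 as lower. Leaving out each diet in turn gave 0 to 0 members there, while 988 to 2126 genes passed as higher and 1039 to 2252 as lower. Between fat and liver these runs gave 5 to 7 members, all higher in fat, with the lowest number without DR. Over all genes 5877 to 6938 passed as higher in fat and 4143 to 4804 as lower. Genes under about 10 counts, such as Trem2, Cd163 and Aif1 in the colon, were too shallow for a difference to be detected.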
